A study of Mus musculus with 220 samples.

Results

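The mice described here were the 3 female F1 offspring whose maternal strain was labelled BXD24/TyJ-Cep290<rd16>/J (BXD24 below), 3 of 220 mice in all. Membership was set by that strain label alone, and they were compared with the 33 other maternal strains whose label starts with BXD (80 mice), each of which entered as the mean of its mice. Every mouse in the series had a C57BL/6J father with human transgenes for APOE-Leiden and CETP, and offspring that inherited both were kept, so all groups had both. The mice ate chow for 8 weeks and then a Western diet for 16 weeks, and livers were taken at 24 weeks of age. Of the other BXD strains, 3 had 1 mouse, 14 had 2, 15 had 3 and 1 had 4. The progenitors of the BXD panel, DBA/2J (3 F1 mice) and C57BL/6J (2 F1 mice), were used for reference. A BXD24 mother passes on 1 copy of the rd16 allele and the father a normal one. BXD24 is a single strain, and no BXD24 line without the mutation entered the comparison, so an effect of the allele and an effect of the rest of the BXD24 genome cannot be told apart.

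CEP290 is a protein of the ciliary transition zone, the gate at the base of the primary cilium that controls which membrane proteins enter. The rd16 allele, an in-frame deletion found in a BXD24 substrain, causes early retinal degeneration in homozygotes, and loss of CEP290 in humans causes retinal, renal and hepatic ciliopathies. In liver, primary cilia stand on bile duct cells (cholangiocytes), whereas hepatocytes, which supply most liver RNA, lack them. Primary cilia relay Hedgehog signals: the receptor PTCH1 holds back SMO, and the GLI factors carry the signal to target genes, Ptch1 and Gli1 among them.

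Liver RNA of each mouse was read on 1 array, and signal was recorded as log2 RMA values, in which a step of 1 is a doubling of probe signal. The array medians of the 3 BXD24 mice were 3.46, 3.49 and 3.46, within the 3.43 to 3.56 of all 220 arrays. Hepatocyte genes averaged 11.17 in BXD24 and 10.85 to 11.35 over the other BXD strains, so the tissue matched its label. Differences were tested in 2 ways. The test over strain means asked whether BXD24 lay outside the spread of the 33 other strain means. The test between mice asked whether the 3 mice differed from the average BXD strain by more than mice of one strain differ, which a strain with any private combination of alleles would do at some genes. Over strain means, 6 of 45037 probe sets (0.0133%) passed, 4 higher (0.00888%) and 2 lower (0.00444%), with 1502 at an unadjusted p under 0.05. Between mice, 1265 probe sets (2.81%) passed, 669 higher (1.49%) and 596 lower (1.32%). Counted as genes, with the brightest probe set for each, 334 of 17097 (1.95%) were higher and 299 (1.75%) lower. At an unadjusted p under 0.05 in this test, 1556 of the 17097 genes were higher and 1323 lower. The labels do not say whether the 3 mice shared a litter or cage. The p-values measure only the spread between strain means or, between mice, the spread within strains pooled over all 220 mice. They do not measure the spread of the 3 BXD24 mice alone.

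Cep290 transcript itself was not detectably changed. Its 1 probe set read 2.92, 2.48 and 2.66 in the 3 mice, against 2.64 to 3.14 (mean 2.86) over the other strain means. Mouse 1 lay among the other strains and mouse 2 below them all. The difference was −0.17 (SE 0.09, adjusted p = 0.37 between mice), and 9 of the 34 strains lay as far from the mean of the rest, an exact two-sided permutation p of 0.265 where 0.0294 is the smallest possible. The signal was below the median probe set (3.46), near the floor of the array. The sources used here do not place the probes on the transcript, so the level checks neither the deletion nor the label.

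The genes of the cilium were near the BXD average in these livers. Of 136 genes in 9 ciliary lists, 121 were measured and 95 of those were above the median signal. Between mice, 3 were higher and 2 were lower (4.13%, against 3.7% of all genes). Over strain means 0 passed by limma, with 5 at an unadjusted p under 0.05. The median difference was 0.02, beside 0.01 over all genes, and the BXD24 mean lay above the other strains for 2 of the 121 genes and below them for 6, beside 4.01% of all genes (3.96% of probe sets) outside that range in either direction. Within the lists, 0 of 12 BBSome genes (the coat that carries membrane proteins in cilia), 0 of 15 intraflagellar transport B genes, 0 of 7 intraflagellar transport A genes and 0 of 15 motor and GTPase genes passed between mice. The number of ciliary genes that passed was 5, 3 and 2 without mouse 1, 2 and 3. It was 4 when only the TyJ strains were the comparison, and 9 with only the RwwJ strains, the newer BXD lines.

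**Figure D1:**
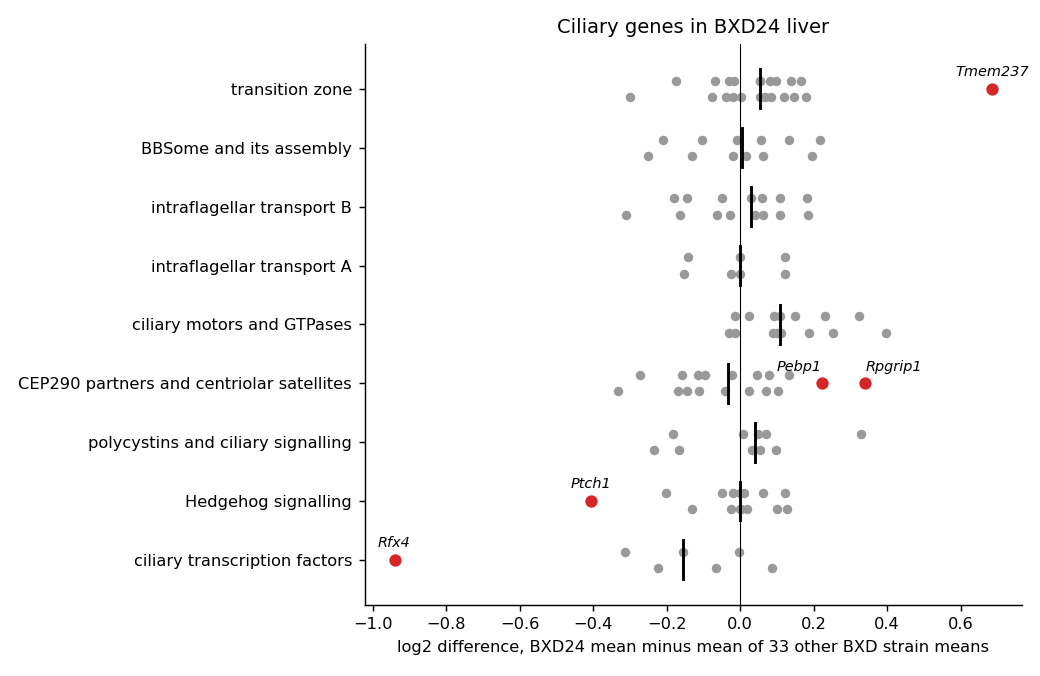
Difference in log2 signal between the BXD24 mean (3 mice) and the mean of the 33 other BXD strain means for the measured members of 9 ciliary gene lists (rows). Each point is a gene, red points are the 5 genes that passed the test between mice, and black bars mark list medians, which run from −0.16 to 0.11.

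The ciliary gene that was furthest above was Tmem237, which codes for a transition zone membrane protein and is mutated in Joubert syndrome. It read 6.33, 6.35 and 6.63, against 4.76 to 6.47 over the other strain means. Mouse 3 lay above all of these means, and mice 1 and 2 among the highest. The rise was 0.69 (SE 0.15, adjusted p = 0.00141 between mice), the second highest of 34 strains, and missed the threshold without mouse 3 (0.59, adjusted p = 0.0842) and against the TyJ strains alone (0.50, adjusted p = 0.0546). The other 21 transition zone genes measured, Cep290 among them, did not pass and differed by −0.30 (Iqcb1) to 0.18 (Atxn10).

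Among CEP290 partners and satellite genes, 2 of 18 were higher, where 1.95% of all genes were. Rpgrip1, whose product anchors the retinitis pigmentosa GTPase regulator RPGR at the connecting cilium, read 7.09, 7.07 and 6.93 against 6.18 to 7.34 (difference 0.34, adjusted p = 0.00729). Pebp1, coding for a Raf kinase inhibitor protein that accumulates in rd16 retina, read 11.56, 11.47 and 11.39 against 10.75 to 11.58 (0.22, adjusted p = 0.00409). All 3 mice lay inside the range of the other strains for both genes. Both also differed between the progenitor crosses, Rpgrip1 with a DBA/2J mean of 6.36 and a C57BL/6J mean of 7.11 and Pebp1 with 11.63 and 11.02, and BXD24 lay between the progenitors each time. Rpgrip1 missed the threshold without mouse 1 or mouse 2 and Pebp1 without mouse 1. Rfx4, an RFX gene in the list of ciliary transcription factors, fell by 0.94 (4.67, 4.05 and 4.42 against 3.94 to 6.43, adjusted p = 0.00474). The DBA/2J mean of Rfx4 was 5.02 and the C57BL/6J mean 6.24, and its call was lost without mouse 2 or mouse 3. Rfx5 and Rfx7 were 0.31 and 0.16 below the BXD mean and Rfx3 0.22 below, none past the test, so that 6 of 7 factors in this list lay on the low side.

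Of the Hedgehog pathway, the receptor gene Ptch1 alone passed, 1 of 15 genes, where 3.7% of all genes passed. Ptch1 read 7.20, 7.25 and 6.83, against 7.26 to 7.86 over the other strain means. All 3 mice were below every other BXD strain mean, mouse 3 by the widest margin, while 6 of the 80 single mice of other strains were below the highest BXD24 mouse. The fall was 0.41 (SE 0.10, adjusted p = 0.00914 between mice), and without mouse 3 it was 0.28 and did not pass (adjusted p = 0.372). The DBA/2J and C57BL/6J means were 7.65 and 7.70. A dimmer Ptch1 probe set read 2.69, 2.93 and 2.87, a difference of 0.02. Smo was 0.20 below the other strains (6.03, 6.13 and 5.88 against a mean of 6.22) and did not pass. Gli1 (2.66, 2.57 and 2.81), Gli2 (3.23, 3.08 and 3.28) and the ligand gene Ihh (2.90, 2.82 and 2.76) were below the median probe set, near the floor of the array.

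The clearest departures of BXD24 lay outside these lists. Adam15 and Eea1 were the 2 genes (0.0117%), by their brightest probe sets, that passed over strain means. Adam15 codes for a membrane metalloproteinase with a disintegrin domain. It read 6.69, 6.48 and 6.29 in the 3 mice, against strain means of 5.01 to 5.59. No mouse of the 80 from other BXD strains reached the lowest BXD24 mouse (highest 5.98), and the BXD24 mean also exceeded those of all 95 other strains of the series. The rise was 1.11 (2.16-fold, SE 0.14, adjusted p = 0.000117 over strain means). Of 3 dimmer Adam15 probe sets, one rose by 0.58 (3.43, 3.30 and 3.0 against 2.51 to 2.88, adjusted p = 0.00358), one by 0.51 (3.29, 3.49 and 2.74 against 2.48 to 2.82, adjusted p = 0.0204), and the last was 0.25 higher and did not pass. The DBA/2J and C57BL/6J means, 5.28 and 5.23, were close to each other and well below BXD24. The name of the brightest probe set carries the suffix that marks probes which may match other transcripts, unlike the other three.

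Eea1 codes for the early endosome antigen that tethers endosomes for fusion. It read 7.25, 6.66 and 7.13, against strain means of 7.54 to 8.03. All 80 mice of the other strains were above the highest BXD24 mouse (lowest 7.39), and the BXD24 mean was below those of all 95 other strains. The fall was 0.72 (1.65-fold, SE 0.10, adjusted p = 0.000653 over strain means). Against the RwwJ strains alone it was 0.76 and narrowly missed the threshold (adjusted p = 0.0545), and between mice it passed whichever mouse was left out. The DBA/2J and C57BL/6J means were 7.71 and 7.62.

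Of the other probe sets that passed over strain means, 1 had no gene name and 1 was a lesser probe set of U2surp, and both were singled out after their values were seen. The unnamed probe set read 6.62, 3.41 and 3.28 against 2.93 to 3.98, so that mouse 1 alone was high, and without that mouse the difference was 0.06. One of 4 probe sets of U2surp, a splicing factor gene, read 7.72, 7.08 and 7.23 against 7.71 to 8.05 (fell by 0.51, adjusted p = 0.0204), whereas the other three were 0.23, 0.27 and 0.23 lower and did not pass over strain means, although the brightest of them did between mice (adjusted p = 0.0321).

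**Figure D2:**
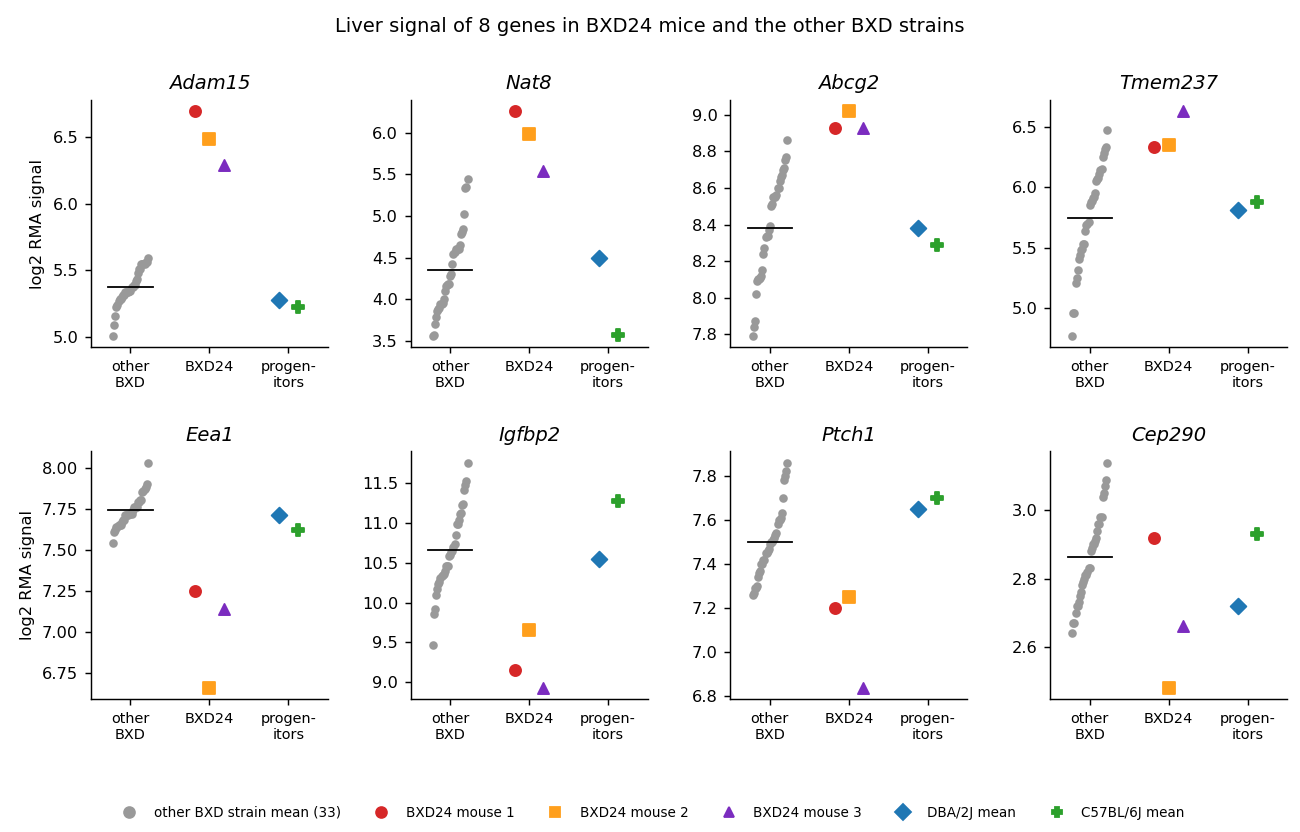
Log2 RMA signal of 8 genes, with the 33 other BXD strain means as grey points in rising order (black line, their mean), the 3 BXD24 mice as coloured symbols, and the DBA/2J and C57BL/6J strain means. The axes do not start at 0 and differ between panels. The mice stand clear of the grey points for Adam15 and Eea1, just outside them for Nat8, Abcg2 and Ptch1, and among them for Tmem237 and Cep290 except mouse 3 of Tmem237 and mouse 2 of Cep290.

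In 73 genes (0.427%) all 3 mice lay outside the range of the other strain means, 46 above (0.269%) and 27 below (0.158%). Of these 33 (0.193%) and 17 (0.0994%) also passed between mice, and the 10 largest in each direction, Adam15 and Eea1 included, are named here. Choosing genes by these criteria fixed their direction. Among the rises, Nat8, coding for an acetyltransferase of mercapturic acid formation, was the largest. It read 6.26, 5.99 and 5.54, against 3.56 to 5.45 (rise 1.57, SE 0.23, adjusted p = 2.8e-07), and 3 of the 80 other mice exceeded the lowest BXD24 mouse. Abcg2, the efflux transporter of drugs, urate and porphyrins, read 8.93, 9.02 and 8.93 against 7.79 to 8.86 (0.57, adjusted p = 0.000815), above all 95 other strains. These 3 mice were within 0.1 of each other.

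Coq7, coding for a hydroxylase of ubiquinone synthesis, read 9.19, 9.28 and 9.33 against 8.13 to 9.17 (0.53, adjusted p = 0.000219). Mpv17l2, required for mitochondrial ribosome assembly, read 6.34, 6.22 and 6.37 against 5.59 to 6.07 (0.45, adjusted p = 0.00242). Tmem37, a relative of calcium channel gamma subunits, read 9.21, 9.30 and 9.61 against 8.44 to 9.10 (0.56). The transcript 1110008P14Rik read 8.38, 8.20 and 8.32 against 7.25 to 8.02 (0.65), and no mouse of another BXD strain reached its lowest value. Its other probe sets were 0.32 and 0.11 higher, and the first of these passed. Of genes known from endothelial cells, Esm1 (endocan) read 4.54, 5.28 and 4.61 against 2.87 to 4.51 (0.98, adjusted p = 0.00416) and the Notch receptor gene Notch4 read 4.21, 4.32 and 4.26 against 3.22 to 4.11 (0.49, adjusted p = 0.00515). Cemip2, coding for a cell surface hyaluronidase, rose by 0.46. Adam15, Nat8, 1110008P14Rik, Abcg2, Tmem37 and Coq7 passed whichever mouse was left out. Mpv17l2 lost its call without mouse 3, Esm1 without mouse 2, and Notch4 and Cemip2 without mouse 2 or mouse 3.

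The falls after Eea1 were smaller, and fewer calls held whichever mouse was left out, 2 of the 10 falls (Eea1 and Os9) against 6 of the 10 rises. Os9, coding for a lectin of endoplasmic reticulum quality control, read 8.21, 8.18 and 8.15 against 8.31 to 8.86 (fell by 0.38, SE 0.08, adjusted p = 0.00129), was below all 95 other strains and passed whichever mouse was left out, although its second probe set differed by 0.03 only. Abca8a, an ABC lipid transporter gene, read 9.40, 9.33 and 8.79 against 9.49 to 10.42 (fell by 0.67, adjusted p = 0.00192) and did not pass without mouse 3. Reck, which codes for a membrane inhibitor of matrix metalloproteinases, read 4.55, 4.53 and 4.50 against 4.68 to 5.61 (fell by 0.51, adjusted p = 0.00553). Diaph2, a formin gene, read 7.64, 7.16 and 7.61 against 7.69 to 8.14 (fell by 0.38), mouse 2 lying furthest below. Npr3, the clearance receptor for natriuretic peptides, fell by 0.52, Asic5, a bile acid sensitive ion channel gene, by 0.60, Nkap by 0.41 and Morn4 by 0.40, the last on a probe set near the floor (2.86, 2.82 and 2.60 against 2.91 to 3.44). Npr3 and Asic5 lost their calls when any one mouse was removed. Their differences changed little, −0.46 to −0.54 for Npr3 and −0.59 to −0.62 for Asic5. The SE grew from 0.14 to 0.17 and from 0.18 to 0.22. Reck and Morn4 lost theirs without mouse 2 or mouse 3, although the fall of Reck stayed at 0.50 to 0.53. Nkap and Diaph2 lost theirs without mouse 2.

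As genes chosen for lying outside the other BXD strains, these 20 are largely bound to lie outside the progenitor means too, and none lay between them. Of the rises 9 were past the DBA/2J mean and 1 past the C57BL/6J mean, and of the falls 8 and 2. In 0 of 20 did the progenitors differ by limma between mice at an adjusted p under 0.05. The share of all genes that did was not set beside this count. Genes that differ between the progenitors can vary widely between BXD strains, which the choice of these 20 works against, so no lack is read from the 0. For 4 rises and 4 falls the BXD24 mean was outside all 95 other strains of the series, as in 0.585% of all genes, a share that cannot be compared with that of genes chosen for lying outside the BXD strains.

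**Figure D3:**
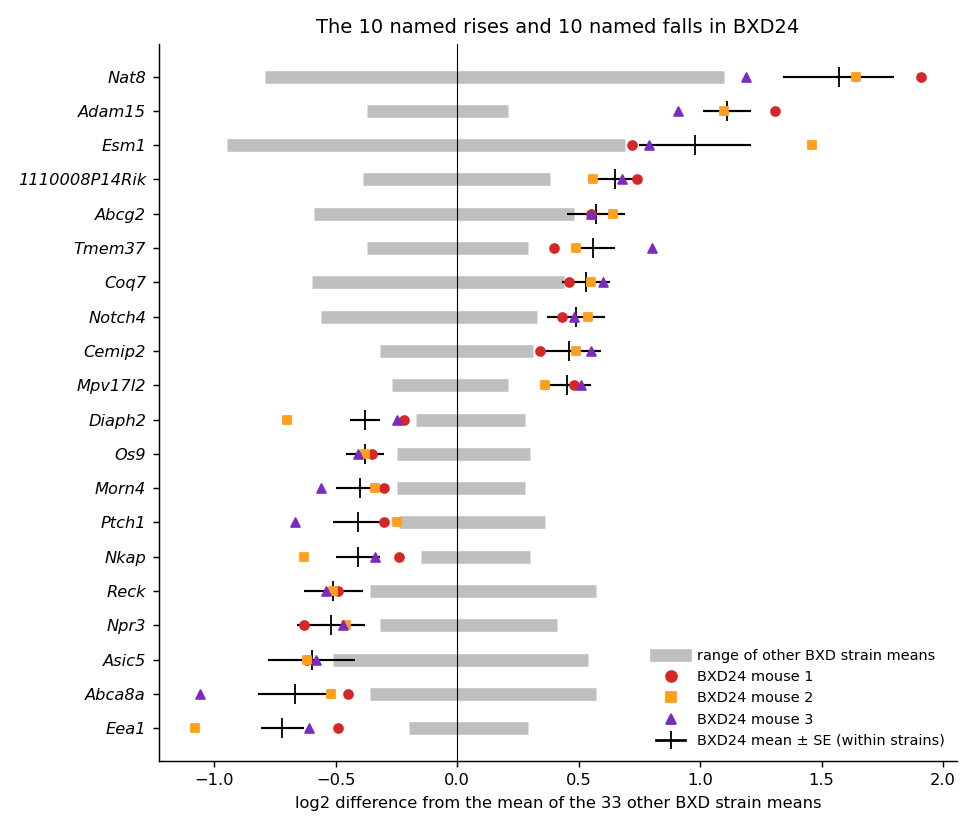
Log2 difference from the mean of the 33 other BXD strain means for the 10 named rises and 10 named falls. Grey bars span the other strain means, coloured symbols are the 3 BXD24 mice, and black ticks with lines are the BXD24 mean ± SE between mice. By the rule that chose the genes every mouse lies outside its grey bar, and mouse 2 of Eea1 and mouse 3 of Abca8a stand apart from the other two.

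The genes next to Cep290 were examined in RefSeq order, 15 measured genes on each side. Of the 30, 0 were higher and 1 was lower between mice, with differences of −0.74 to 0.20. Over all genes 3.7% passed and 1.75% were lower, so these counts do not set the neighbours apart. The gene that fell was Lin7a, which codes for a PDZ scaffold protein of cell junctions. It read 7.05, 6.81 and 6.91 against 6.78 to 8.50 (fell by 0.74, SE 0.17, adjusted p = 0.00456), inside the range of the other strains but low in it, and its 2 other probe sets were 0.72 and 0.89 lower and also passed. The fall missed the threshold without mouse 2 (0.68, adjusted p = 0.0898) or mouse 3 (0.73, adjusted p = 0.0627). The DBA/2J and C57BL/6J means of Lin7a were 8.04 and 8.23, and 0 of the 30 neighbours differed between the progenitors. The share of all genes that did was not set beside this count. Eea1 lies on the same chromosome as Cep290, with 16 measured genes between them. Of the 30 neighbours of Eea1, 2 were lower, Ndufa12 by 0.25 (adjusted p = 0.0152) and 4930459C07Rik by 0.58 (adjusted p = 0.0231). Ndufa12 was the 1 of these 30 that differed between the progenitors (DBA/2J 10.625, C57BL/6J 10.985). Its BXD24 mean of 10.526 lay inside the range of the other strains. The BXD24 mean of 4930459C07Rik was 3.154, near the floor, beside 3.653 in DBA/2J and 3.272 in C57BL/6J. The genes from Btg1 to Kitl stand in both sets of neighbours, so the sets of Cep290 and Eea1 are not separate. Of the 30 neighbours of Adam15, 0 passed between mice.

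Among liver functions, several genes of drug and steroid metabolism were lower. In the xenobiotic list, 6 of 24 genes fell and 0 rose (1.75% of all genes fell), with a median difference of −0.45. Cyp3a41a, a female-predominant cytochrome P450, read 6.84, 6.19 and 6.58 against 6.47 to 11.88 (fell by 2.78, SE 0.60, adjusted p = 0.00185), mouse 2 lying below every other strain mean, and it missed the threshold without that mouse (adjusted p = 0.0518). Cyp2c39, a P450 of fatty acid epoxidation, read 4.13, 4.21 and 4.93 against 4.0 to 9.77 (fell by 2.35, adjusted p = 4.24e-13). The DBA/2J mean of Cyp2c39 was 9.25 and the C57BL/6J mean 5.30, and the BXD24 mice were on the C57BL/6J side. The sulfotransferase gene Sult2a2 read 4.29, 6.81 and 8.62 (fell by 2.21) and Cyp2c37 read 8.34, 9.31 and 9.88 (fell by 1.08). In both, mouse 1 lay below every other strain mean (lowest 5.29 and 8.94) and the other mice inside their range. Neither passed without mouse 1 or without mouse 2 (adjusted p = 0.0908 for Sult2a2 and 0.0503 for Cyp2c37 without mouse 2). Without mouse 1, 2 of the 24 genes passed. In the list of sex-biased genes, 2 rose and 2 fell of 20 (1.95% and 1.75% of all genes), with 2 of 20 above the BXD average. Cyp4a12a, a male-predominant P450, read 7.74, 6.44 and 6.07 against 2.58 to 8.65 (rose by 2.39, adjusted p = 0.000729) and Cyp2d9, also male-predominant, rose by 0.99. These were the 2 genes above the average. The other male-predominant genes of the list, Mup3, Hsd3b5, Cyp7b1, Slco1a1 and Elovl3 among them, were not above it, so male-predominant genes did not rise together. The female-predominant Cyp3a41a and Sult2a2, which stand in both lists, were the 2 that fell. Without mouse 1, Cyp4a12a just missed the threshold (adjusted p = 0.0509), and Cyp2d9 lost its call when any one mouse was removed.

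Genes of insulin and glucose metabolism gave 3 falls of 13 (1.75% of all genes fell), with a median difference of −0.09. Their mean level of 8.49 was at the low end of the BXD strains, next to 8.50 in the lowest other strain, and Lepr and Igfbp2 had by far the widest differences in the list. Igfbp2, a secreted binding protein of insulin-like growth factors that is induced in liver by leptin, read 9.15, 9.65 and 8.93 against 9.46 to 11.76 (fell by 1.42, SE 0.20, adjusted p = 6.98e-08). Mice 1 and 3 were below every other strain mean. Lepr, the leptin receptor, read 5.47, 5.39 and 5.01 against 5.17 to 8.81 (fell by 1.54, adjusted p = 0.00064). The progenitors differed for Lepr (DBA/2J 6.27, C57BL/6J 8.23), and of its 3 other probe sets one passed (−1.42), one did not (−0.72) and the dimmest differed by 0.02. Igfbp2 and Lepr passed whichever mouse was left out. Insr fell by 0.26 and lost its call without any one mouse, while G6pc was 0.46 higher and Igfbp1 0.47 higher without passing.

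In the lipid droplet list 2 of 14 genes rose (1.95% of all genes rose), with a median difference of 0.12. Mogat1, an acyltransferase of triglyceride synthesis that is raised in fatty liver, read 6.11, 6.45 and 7.01 against 3.61 to 6.47 (rose by 1.84, SE 0.33, adjusted p = 6.39e-05) and passed whichever mouse was left out. Fitm1, a fat storage gene, read 7.86, 8.29 and 8.34 against 5.14 to 7.92 (rose by 1.36, adjusted p = 0.00221), and missed the threshold without mouse 2 or mouse 3. Plin4 was 1.09 higher and did not pass. Elsewhere in lipid metabolism 1 gene a list fell: Mlxipl, the carbohydrate response factor ChREBP, by 0.48 of 18 fatty acid synthesis genes, Abcb11, the bile salt export pump, by 0.41 of 22 bile acid genes, and Hmgcs1 by 0.42 of 19 cholesterol synthesis genes, the last on a probe set at 3.08, 3.20 and 3.34 near the floor. These 3 calls were lost without mouse 2 or mouse 3, that of Hmgcs1 also without mouse 1, and 1.75% of all genes fell. Of 21 PPARa targets, 16 glutathione and NRF2 targets, 17 unfolded protein response genes and 8 heat shock genes, 0 passed between mice by limma, with 6, 6, 1 and 0 at an unadjusted p under 0.05. Over all 17097 genes, 1556 were higher and 1323 lower at that unadjusted p. In the glutathione list 15 of 16 genes were above the BXD average, with a median of 0.20.

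Markers of liver macrophages were on the high side and interferon genes on the low side. Of 26 macrophage and Kupffer cell genes, 4 rose, 0 fell and 24 were above the BXD average (median 0.27), where 1.95% of all genes rose and 8845 of 17097 were above that average, and their mean level of 9.01 was the third highest of 34 strains (7.96 to 9.06 in the others). Marco, a scavenger receptor gene, read 6.54, 6.69 and 7.13 against 3.17 to 8.03 (rose by 1.94, adjusted p = 0.0285). Timd4, which marks resident Kupffer cells, rose by 1.26, Vsig4, a complement receptor gene, by 0.76 and C1qc by 0.38. The defining Kupffer cell gene Clec4f read 9.04, 9.03 and 8.28 and was 0.60 higher without passing. None of the 4 calls held whichever mouse was left out: 1, 0 and 1 genes of the list passed without mouse 1, 2 and 3. The rises themselves ran from 1.76 to 2.06 for Marco and 0.69 to 0.86 for Vsig4 in these settings. They ran from 1.02 to 1.40 for Timd4 and 0.25 to 0.45 for C1qc. Against the TyJ strains, whose label BXD24 shares, 3 passed and the median difference shrank to 0.12. With the RwwJ strains as the comparison 8 passed and the median was 0.41, although Marco (adjusted p = 0.0614) and Timd4 (0.0751) were not among those 8. In whole liver, a change in the number of cells of a type and a change in the RNA per cell cannot be told apart. Of 16 endothelial genes, Lyve1 rose by 0.77 and lost its call when any one mouse was removed, beside the rises of Esm1 and Notch4 above, and mouse 2 was highest (list medians −0.11, 0.53 and 0.06), where the part of endothelial content in those rises was not tested. Of 30 interferon genes, 29 were below the BXD average (median −0.32) and 1, Irf9, passed (fell by 0.36, adjusted p = 0.0165), which was lost without mouse 2 or mouse 3. Mouse 2 was at the BXD average for this list (−0.01), and mice 1 and 3 were at −0.45 and −0.48.

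Of 16 T and NK cell, 10 B and plasma cell, 10 neutrophil, 10 pancreatic acinar and 10 muscle genes, 0 passed between mice by limma, with 1, 1, 1, 1 and 0 at an unadjusted p under 0.05. At that unadjusted p, 1556 of all 17097 genes were higher and 1323 lower. Alas2, the erythroid enzyme of heme synthesis, rose by 0.83 (6.31, 6.64 and 6.36 against 4.71 to 6.64, adjusted p = 0.000167) as 1 of 6 erythroid genes, and Fabp4, the fatty acid binding protein of adipocytes and macrophages, by 0.66 as 1 of 6 adipocyte genes, the latter lost without mouse 2 or mouse 3. Among 20 acute phase genes, fibrinogen alpha (Fga) fell by 0.24, also lost without either of those mice. Over all genes 1.95% rose and 1.75% fell. Of 24 cell cycle and DNA damage genes, 13 immediate early genes and 16 genes that the study itself singled out in these mice, 0 passed between mice by limma, with 2, 4 and 4 at an unadjusted p under 0.05.

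**Figure D4:**
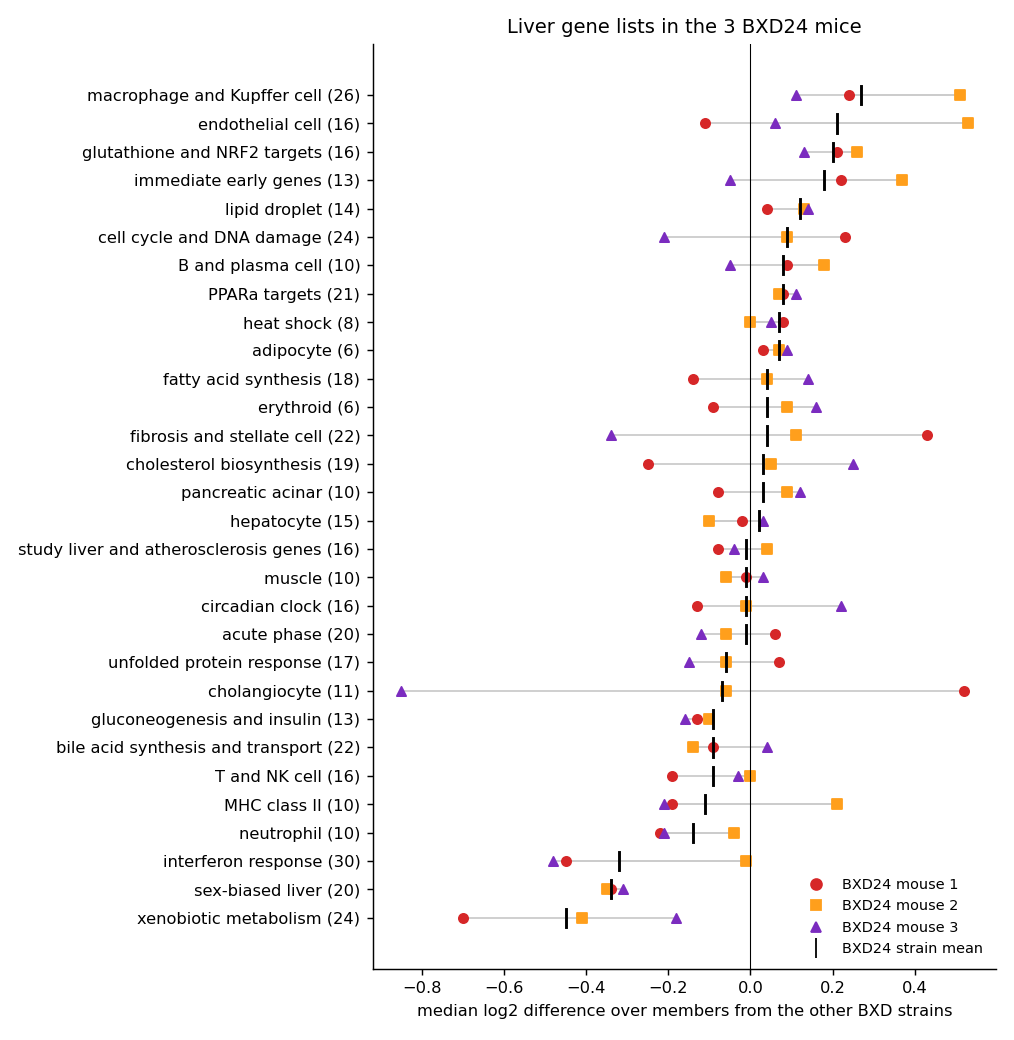
Median log2 difference from the mean of the other BXD strain means over the members of 30 liver gene lists (number measured in parentheses), for each BXD24 mouse (coloured symbols) and for the strain mean (black ticks). The mice agree for sex-biased genes (−0.34, −0.35 and −0.31) and stand far apart for cholangiocyte genes (0.52, −0.06 and −0.85).

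The 3 BXD24 mice differed from each other more than the mice of most strains. The median SD between them was 0.147 over probe sets. Over the 16 other BXD strains with 3 or more mice it was 0.109 to 0.158, and in 14 of the 16 it was lower than in BXD24. Mouse 3 differed by 1 or more from the mean of the other 2 in 306 probe sets, mouse 1 in 173 and mouse 2 in 66. Transcripts that mark cholangiocytes were among those that differed. Of 11 cholangiocyte genes 0 passed by limma between mice, also at an unadjusted p under 0.05, and the median difference of the list was −0.07, but Epcam read 7.27, 6.95 and 5.0, Sox9 5.45, 5.04 and 3.80, Krt19 4.50, 3.65 and 3.03 and Cd24a 8.63, 8.02 and 7.14. Mouse 1 was highest and mouse 3 lowest in each of these, all inside the range of the other strains. Pkhd1 and Bicc1, cystic kidney disease genes of the polycystin list that bile ducts express, followed the same order (6.86, 6.54 and 5.55, and 7.52, 6.83 and 5.71). Fibrosis genes did so as well, with list medians of 0.43, 0.11 and −0.34 and Col1a1 at 6.36, 5.65 and 4.81, and 0 of 22 passed by limma between mice, with 2 at an unadjusted p under 0.05. The part of bile duct content in the ciliary values above was not tested.

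Clock genes also differed between the mice. Arntl, coding for the activator BMAL1, read 6.52, 4.97 and 3.83, and the clock output gene Dbp read 5.55, 7.53 and 8.22, so that the order of the mice was opposite for the 2 genes. Ciart, a repressor of the clock, read 2.88, 3.21 and 6.55, and its rise of 1.06 (adjusted p = 0.0494) came from mouse 3: without it the difference was −0.11. The labels do not give the time of day of collection, and its part in these results was not tested.

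Each BXD strain is a mosaic of DBA/2J and C57BL/6J, and BXD24 was nearer DBA/2J than C57BL/6J at more of the genes where the progenitor crosses differed. In 84 genes the DBA/2J and C57BL/6J means differed by 1 or more and passed between mice. BXD24 was nearer DBA/2J in 53 and nearer C57BL/6J in 31, with 33 of the 84 beyond both progenitor means, where the other BXD strains had 15 to 72 (median 40) nearer DBA/2J and 7 of 33 had more than BXD24. All 3 mice were on the DBA/2J side in 45 genes and on the C57BL/6J side in 15. Several of the widest differences from the other strains were at such genes. Of 30 genes that passed between mice with a difference of 1 or more, 17 were higher and 13 lower. Of the 30, 13 also differed between the progenitors. The matching share of all genes was not set beside this count. Genes that differ between the progenitors can also vary widely between BXD strains, so no excess is read from the 13. The 3 named next beside H2-Ea were chosen after their values were seen.

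Cathepsin E (Ctse) read 9.98, 10.14 and 10.22 against 3.30 to 10.25, with a DBA/2J mean of 10.26 and a C57BL/6J mean of 3.27. The MHC class II gene H2-Ea, which is not expressed from the C57BL/6J allele, read 10.20, 10.60 and 10.22 against 2.77 to 10.77. It was the 1 gene of 10 in the class II list that passed (rose by 2.84, adjusted p = 6.38e-09), where 3.7% of all genes passed. The interferon-inducible Ifi202b read 8.22, 8.69 and 8.33, near the DBA/2J mean of 8.24. Crym, the thyroid hormone binding protein mu-crystallin, read 4.55, 4.06 and 3.89, near the C57BL/6J mean of 3.95 and below that of DBA/2J (6.58). The BXD24 means of all 4 genes lay inside the range of the other BXD strains.

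**Figure D5:**
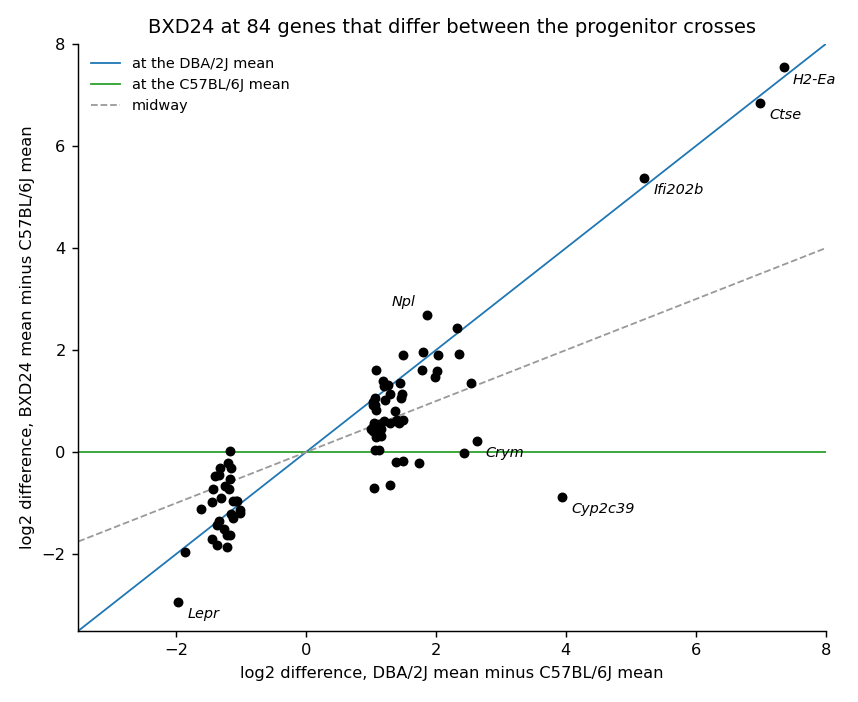
BXD24 at the 84 genes that differed by 1 or more between the progenitor crosses, with the DBA/2J minus C57BL/6J difference on the x axis and the BXD24 minus C57BL/6J difference on the y axis (log2). Both axes subtract the same C57BL/6J mean, so no correlation is read from the plot. Points near the blue line have the DBA/2J level (53 are nearer it) and points near the green line the C57BL/6J level (31 are nearer it, Crym among them), while 33 of the 84 lie beyond both progenitor means, as Cyp2c39 does on the C57BL/6J side.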

How the data were processed

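Each of the 220 livers was run on its own Affymetrix HT MG-430 PM array. The labels name HT_MG-430A arrays, and the probe set names in the table match the PM array of the methods. Per the labels the deposited values are log2 signals of probe sets after robust multi-array averaging (RMA), which subtracts background, quantile-normalizes arrays and summarises probes, so that values are relative and low signals are compressed towards a floor. GCOS and RMA are named, without versions, in the processing notes of the submitters, and no source used here mentions a batch correction. Of 45141 probe sets, 104 array controls were left out. The platform annotation gave 1 symbol to 28898 probe sets, several to 551 (not named) and none here to 15588. Each of 17097 genes was represented by its probe set of highest mean signal in the 220 mice. RefSeq (assembly GRCm38.p6) gave gene names and order only.

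Strain labels defined groups. With limma 3.58.1 in R 4.3.3, lmFit and eBayes were run on 34 BXD strain means (32 residual degrees of freedom) and, between mice, on 220 mice with 1 mean per strain (124 residual degrees of freedom). Tests were two-sided with Benjamini-Hochberg adjustment over 45037 probe sets, called at an adjusted p under 0.05. The code was tested on simulated data. The median SE was 0.125 over strain means and 0.093 between mice, and the number of mice limits the precision. Named genes were Cep290, up to 10 rises and 10 falls called over strain means, filled by size with genes called between mice whose 3 BXD24 mice all lay outside the other strain means, every called ciliary list member, up to 4 called members of each other list and called neighbours of Cep290. The strain label set which mice were compared, but this comparison and the gene lists were chosen with earlier results of these data known. Replicate numbers only name mice. Alternatives were other strains, weights, filters, normalizations and summaries, and leaving out each BXD24 mouse.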

Additional observations from a re-analysis of the deposited data

How the results depend on the processing

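The number of probe sets that passed over strain means, 6 of 45037, was 2 against the TyJ strains and 2 against the RwwJ strains. Among the 22518 probe sets above the median signal it was 3. It was 10 with the median of mice as the strain value, and 5 to 80 when a BXD24 mouse was left out, the 80 without mouse 1. It was 5 to 8 with weights, with strains of 2 or more mice, with either renormalization, with trend and robust eBayes and with strain as a random block. Between mice, 1265 became 747 against the TyJ strains, 2154 against the RwwJ strains and 407 to 1401 without a mouse, and 357 of the 407 left without mouse 3 were among the 1265. The count of probe sets whose BXD24 mean lay outside the other strain means was 1785 of 45037. It became 2757 with strains of 2 or more mice and 2251 to 4443 without a mouse. Above the median signal it was 1005 of 22518 probe sets. Added after seeing the data, the number of genes that passed without a mouse was 2 to 5 (5 with all mice) for the ciliary lists, 0 to 1 (4) for macrophages, 2 to 6 (6) for xenobiotic metabolism and 2 (3) for insulin and glucose genes. Against the RwwJ strains it was 9 for the ciliary lists and 8 for macrophages, and against the TyJ strains 4 and 3.

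Of 50 named genes that passed between mice, 14 passed whichever mouse was left out, and 14, 29 and 26 calls were lost without mouse 1, 2 and 3. Other probe sets of a gene went the opposite way for Notch4 (−0.08), Nkap (0.09), Ptch1 (0.02), Os9 (0.03), Rpgrip1 (−0.17), Rfx4 (0.00), Lepr (0.02) and Insr (0.03 and 0.17), none past the threshold, and Ciart ran from −0.11 without mouse 3 to 1.73 without mouse 1. Cep290 (−0.17) was −0.29 to −0.07 without a mouse and did not pass. The causes were not tested, beyond the fewer arrays or probe sets in some settings. No paired analysis was possible because replicate numbers were given in accession order and pair no mice. Probe sets near the floor, among them Cep290, Gli1 and Ihh, can hardly show a fall.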
